A study of Mus musculus with 3 samples.

Results

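The 8 genes described here encode transcription factors that set natural killer (NK) cells apart from type 1 innate lymphoid cells (ILC1) or that both lineages need: Eomes, Tbx21, Zfp683, Prdm1, Id2, Nfil3, Gata3 and Runx3. They were chosen by symbol from lineage knowledge, with earlier results of these data known. Each symbol matched 1 of the 25906 genes in the count matrices. Of the 8, 7 reached 10 CPM (counts scaled to a fixed library total) in at least 1 group, and Zfp683 did not reach that level in any of the 6 groups.

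NK cells and ILC1 are both innate lymphocytes that make interferon-gamma. Background knowledge gives both a need for T-bet (Tbx21), whereas Eomes is the factor that mature NK cells hold and most ILC1 lack. Hobit (Zfp683) and Blimp-1 (Prdm1) are related repressors tied to tissue residency and, for Blimp-1, to NK cell maturation. Id2 blocks E proteins in all innate lymphoid cells, Nfil3 acts early in NK and ILC progenitors, GATA3 is best known from ILC2 and T helper cells, and RUNX3 shapes both NK cell and ILC1 development.

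The cells were NK1.1+NKp46+ lymphocytes sorted from lung and blood of wild-type female mice aged 9 weeks, either naive or given PyMT mammary tumor cells into a vein 6 h or 14 days earlier. Each time point gave 1 single-cell RNA library, in which antibody hashtags told lung from blood, so that 6 groups came from 3 libraries. Lung was enzymatically digested and blood was not, so tissue and tissue handling cannot be told apart. The sources tie no cell to a mouse, so each group counts as 1 sample: no difference was tested against replicates, and every interval below covers counting error only.

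The groups held 2069 to 4680 cells, 21113 in all, with 16936897 to 35922737 unique molecular identifier (UMI) counts per group and median counts of 5910 to 7524 per cell. Ncr1, which encodes NKp46, had a UMI in 93.4% to 99.7% of cells, and Klrb1c, which encodes NK1.1, in 98.2% to 99.8%. Of 3 pairs of libraries, the pairs shared 16, 11 and 6 cell barcodes. Cells with a UMI of Fos, Egr1, Atf3 or Nr4a1, early genes that also respond to tissue digestion, made up 54.3% to 63.9% of lung cells and 15.1% to 18.9% of blood cells. A stricter T cell, ILC2, B cell or myeloid marker rule met 4.90% to 6.83% of cells in a group. Hemoglobin genes summed to 75.2 CPM in 14-day lung and to at most 0.317 CPM elsewhere. In 14-day lung each of them had a UMI in at most 0.0559% of cells.

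RefSeq promoters (GRCm38.p6, 250 bases before to 50 after a start site) were at hand for 7 of the 8 genes. Runx3 and Nfil3 are shown because they are the members past the fold between lung and blood, and Eomes because it was lower in ILC1 marker cells than in the other cells of every group. Runx3 has 2 start regions in the table, and reads from the 3′ end do not tell them apart. Capitals mark RUNX sites (TGTGGT on either strand) and T-box sites (AGGTGTNA on either strand). The upstream Runx3 window lies at chr4:135120395-135120694 on the plus strand and the downstream window at chr4:135152295-135152594. Eomes lies at chr9:118477939-118478238 on the plus strand and Nfil3 at chr13:52980990-52981289 on the minus strand.
Runx3 upstream promoter: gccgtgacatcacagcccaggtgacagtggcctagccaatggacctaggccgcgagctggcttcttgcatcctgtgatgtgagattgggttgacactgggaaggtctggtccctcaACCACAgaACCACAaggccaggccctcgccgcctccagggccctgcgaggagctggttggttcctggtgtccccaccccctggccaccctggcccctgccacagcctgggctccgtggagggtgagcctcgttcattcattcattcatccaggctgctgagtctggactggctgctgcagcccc
Runx3 downstream promoter: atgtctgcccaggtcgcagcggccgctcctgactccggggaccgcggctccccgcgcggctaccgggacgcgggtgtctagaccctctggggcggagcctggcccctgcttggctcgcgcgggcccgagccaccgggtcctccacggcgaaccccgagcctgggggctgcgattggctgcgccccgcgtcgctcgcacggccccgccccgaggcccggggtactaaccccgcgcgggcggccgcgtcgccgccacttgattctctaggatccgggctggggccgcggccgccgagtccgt
Eomes promoter: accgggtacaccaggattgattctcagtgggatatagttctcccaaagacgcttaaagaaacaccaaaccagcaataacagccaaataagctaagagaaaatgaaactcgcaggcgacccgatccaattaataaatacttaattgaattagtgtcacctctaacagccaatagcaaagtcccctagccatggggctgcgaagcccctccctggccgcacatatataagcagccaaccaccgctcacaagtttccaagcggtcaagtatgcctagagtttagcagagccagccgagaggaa
Nfil3 promoter: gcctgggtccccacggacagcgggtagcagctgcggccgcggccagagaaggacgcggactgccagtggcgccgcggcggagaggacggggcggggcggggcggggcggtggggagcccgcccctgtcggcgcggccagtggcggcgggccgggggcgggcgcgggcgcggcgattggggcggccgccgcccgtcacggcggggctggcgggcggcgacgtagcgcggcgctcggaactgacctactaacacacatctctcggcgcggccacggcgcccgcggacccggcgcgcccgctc

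The upstream Runx3 window held 2 RUNX matches, close together, and no other window of the 7 matched genes held one. Over all 32851 promoter windows of the same length, 16.8% held a RUNX match. None of the members' windows held a T-box match, a feature of 3.03% of all windows, nor an NFIL3 match (TTANGTAA on either strand, 2.32%). E-boxes (CANNTG), the letters that E proteins read, were in all windows of the 7 matched members except that of Eomes, against 72.3% of all windows. GC content ranged from 47.3% at Eomes to 81.7% at Nfil3.

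Eomes (ENSMUSG00000032446, chromosome 9, 118478212 to 118486132, plus strand, GRCm38) was present at 291 CPM (283.9 to 297.8) in naive lung and 272 CPM in naive blood, at 249 CPM and 242 CPM in lung and blood at 6 h, and at 223 CPM and 191 CPM (184.9 to 198.2) at 14 days. Naive samples were thus highest and 14-day samples lowest in both tissues, and the counting intervals overlapped only between the 6 h groups. After thinning to 3000 UMIs per cell, the share of cells with an Eomes UMI went from 54.1% in naive lung to 43.9% in 14-day lung, and from 50.7% to 38.4% in blood. At full depth these shares were 73.2%, 68.4%, 73.3% and 64.1%, of which free RNA alone could give at most 11.7% of cells in any group.

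Tbx21 (ENSMUSG00000001444, chromosome 11, 97098071 to 97115331, minus strand) read 386 CPM (378.5 to 394.5) in naive lung and 492 CPM in naive blood, 337 CPM and 432 CPM at 6 h, and 267 CPM and 373 CPM (364.2 to 382.6) at 14 days. Blood was above lung in each library, the reverse of Eomes. Only naive lung and 14-day blood had overlapping intervals among neighbours in this order. The thinned share of cells with a Tbx21 UMI was 60.6% in naive lung, 48.0% in 14-day lung, 70.3% in naive blood and 60.4% in 14-day blood, and 78.1%, 72.4%, 87.8% and 83.4% at full depth, of which free RNA alone could give at most 17.6% in any group.

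Id2 (ENSMUSG00000020644, chromosome 12, 25093799 to 25097140, minus strand) had its lowest level within each tissue in naive mice. From naive to 6 h to 14 days it was at 908 CPM, 946 CPM and 1002 CPM in lung and 978 CPM, 1073 CPM and 1164 CPM in blood. No intervals of these 6 levels overlapped. A UMI of Id2 was found in 83.8% to 91.2% of thinned cells and in 93.7% to 98.6% at full depth, of which free RNA alone could give at most 24.1% to 44.2%, the highest limit of any member.

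Runx3 (ENSMUSG00000070691, chromosome 4, 135120652 to 135177990, plus strand) was at 323 CPM, 341 CPM and 386 CPM (379.2 to 393.8) in lung and at 263 CPM, 280 CPM and 259 CPM (251.3 to 266.7) in blood, in the same order. All lung levels lay above all blood levels, and naive and 14-day blood overlapped. Its largest count in 1 cell was 47 UMIs.

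Nfil3 (ENSMUSG00000056749, chromosome 13, 52967209 to 52981073, minus strand) had 66.2 CPM (62.96 to 69.6) in naive lung, 62.9 CPM at 6 h and 42.9 CPM (40.5 to 45.4) at 14 days, against 24.1 CPM, 26.0 CPM and 23.7 CPM in blood. The 3 blood levels did not differ beyond counting error, nor did naive and 6 h lung, and 14-day lung stood between the tissues. Thinned cells with an Nfil3 UMI made up 17.5%, 15.6% and 12.3% in lung and 7.11%, 8.14% and 6.93% in blood. At full depth the shares were 31.0%, 34.0% and 25.3% in lung and 14.4%, 17.9% and 16.7% in blood, and free RNA alone could give at most 2.98% in any group.

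Gata3 (ENSMUSG00000015619, chromosome 2, 9857078 to 9890034, minus strand) stood at 63.5 CPM and 63.2 CPM in naive and 6 h lung and at 76.7 CPM (73.5 to 80.0) in 14-day lung. Blood held 84.5 CPM, 82.5 CPM and 81.6 CPM (77.4 to 86.0). The lower group was naive and 6 h lung, and the interval of 14-day lung reached those of 6 h and 14-day blood.

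Prdm1 (ENSMUSG00000038151, chromosome 10, 44437177 to 44528501, minus strand) was at 70.3 CPM, 64.5 CPM and 72.1 CPM in lung and 59.8 CPM, 55.0 CPM and 57.7 CPM in blood. Each level overlapped its neighbour in the order.

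Zfp683 (ENSMUSG00000049410, chromosome 4, 134053838 to 134058996, plus strand) was close to the limit of detection, with 2, 3 and 17 UMIs in lung and 8, 5 and 29 UMIs in blood from naive to 6 h to 14 days. These are 0.0852 CPM, 0.0835 CPM and 0.603 CPM (0.351 to 0.966) in lung and 0.267 CPM, 0.226 CPM and 1.71 CPM (1.15 to 2.46) in blood. The 14-day groups were above the other 4, but the interval of 14-day lung overlapped those of naive blood (0.115 to 0.526) and 6 h blood (0.0735 to 0.529). No group reached the 10 CPM asked of a gene before a ratio was counted. At 14 days 17 lung cells and 25 blood cells held a UMI.

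**Figure D1:**
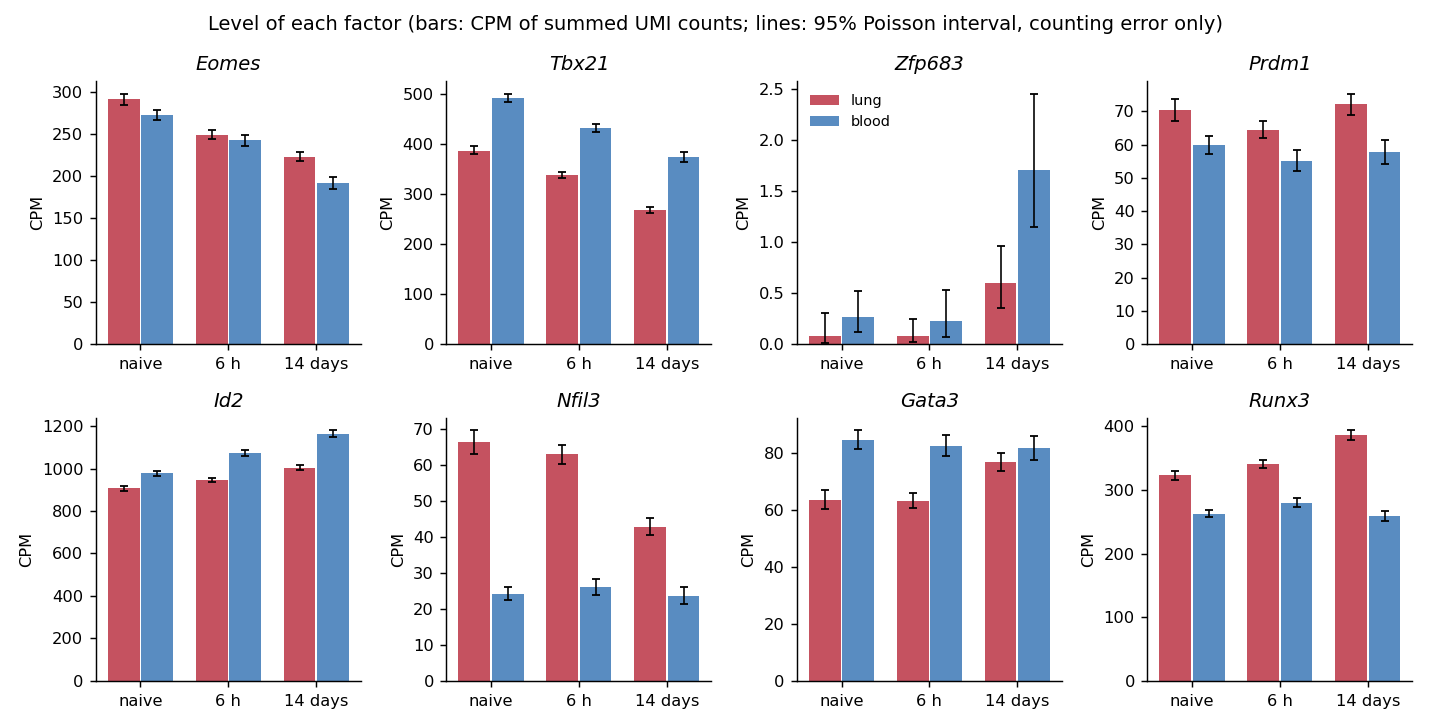
CPM of each of the 8 genes (vertical axis, each panel with its own scale from 0) by time point (horizontal axis) in lung (red) and blood (blue), with 95% Poisson intervals as lines. Nfil3 was higher in lung at each time point, Tbx21 in blood, and Eomes was lower at 14 days than in naive mice in both tissues.

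Within a group, cells differed in how many UMIs of a factor they held. On thinned counts the variance over the mean was 2.14 to 2.43 for Id2, 1.43 to 1.68 for Tbx21, 1.29 to 1.43 for Eomes, 1.24 to 1.63 for Runx3 and 1.03 to 1.17 for Nfil3. It was 1.16 to 1.35 for Prdm1 and 1.06 to 1.21 for Gata3. The highest values of Eomes, Runx3 and Prdm1 were those of 14-day lung, where Id2 and Nfil3 had their lowest. A value of 1 is what random sampling alone would give. Where counts vary beyond sampling, the measure also rises with the mean. In naive lung the thinned means were 2.87 UMIs per cell for Id2, 1.16 for Tbx21, 0.94 for Runx3, 0.87 for Eomes and 0.199 for Nfil3. The values therefore do not rank the genes by how much cells differ.

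Lung and blood from the same library were compared first, with each log2 ratio of CPM given relative to the median over all genes at 10 CPM or more in the higher group, and a relative ratio of at least 0.5 in size counted as past the fold. Nfil3 was past it in every library, higher in lung by a relative log2 ratio of 1.55 (1.42 to 1.68) in naive mice, 1.37 (1.236 to 1.504) at 6 h and 0.96 (0.80 to 1.13) at 14 days. Runx3 joined it at 14 days only, at 0.68 (0.63 to 0.74), after 0.39 (0.34 to 0.43) in naive mice and 0.38 (0.34 to 0.42) at 6 h. With naive mice, 1 of 7 members was thus past the fold, beside 13.3% of 8212 genes. At 6 h the count was 1 of 7 beside 12.1%, and at 14 days 2 of 7 beside 12.3%.

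The other members stayed inside the fold between tissues. Tbx21 was lower in lung in each library, at -0.26 (-0.29 to -0.22), -0.26 (-0.30 to -0.22) and -0.38 (-0.42 to -0.33). Prdm1 was at 0.33, 0.33 and 0.43 and Eomes at 0.19, 0.14 and 0.32, so that Eomes and Tbx21, the related T-box factors, had opposite signs. Gata3 moved from -0.32 (-0.41 to -0.23) in naive mice to 0.02 (-0.08 to 0.11) at 14 days. Id2 was within 0.11 of the median gene in each library.

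The early genes moved with the same contrast: the summed level of 10 stress and early genes was 1633 to 1755 CPM in lung and 352 to 410 CPM in blood. Without cells holding Fos, Egr1, Atf3 or Nr4a1, the Nfil3 ratios were lower, at 1.42, 1.19 and 0.62, and still past the fold. The 6 h and 14-day values lay below the counting intervals of the ratios over all cells, 1.236 to 1.504 and 0.80 to 1.13. Without those cells Runx3 at 14 days was 0.72, and Tbx21 at 14 days came to -0.58, past the fold. The rule did not use other early genes of the list, such as Junb and Dusp1. Runx3 at 14 days was 0.63 without cells holding both Itga1 and Pmepa1, which are described below. It was past the fold in 15 of 16 alternative settings and fell inside it, to 0.37, without cells holding any UMI of a T cell, ILC2, B cell or myeloid marker, a rule that leaves out most cells; there Prdm1 was past the fold at 0.56. In summed counts, fewer cells that hold a transcript and less of it per cell cannot be told apart.

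Mice at 14 days were then compared with naive mice, a contrast between libraries in which time and library cannot be told apart. No member was past the fold in lung, beside 16.9% of 8108 genes, or in blood, beside 5.37% of 8117 genes. Lung ratios were 0.46 (0.36 to 0.56) for Gata3, 0.45 (0.41 to 0.49) for Runx3, 0.33 (0.31 to 0.36) for Id2, 0.22 (0.13 to 0.32) for Prdm1, -0.20 (-0.25 to -0.15) for Eomes, -0.34 (-0.39 to -0.30) for Tbx21 and -0.44 (-0.55 to -0.33) for Nfil3. The median gene itself was at -0.19 in log2 CPM, and taken without it Nfil3 was at -0.63 and Tbx21 at -0.53. Without the early-gene cells, Nfil3 (-0.59), Tbx21 (-0.55) and Runx3 (0.56) were past the fold.

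In blood, Id2 was at 0.40 (0.38 to 0.43), Eomes at -0.35 (-0.41 to -0.29) and Tbx21 at -0.24 (-0.29 to -0.20) at 14 days over naive. Runx3 (0.13), Nfil3 (0.13), Gata3 (0.10) and Prdm1 (0.10) lay within 0.13 of the median gene. Zfp683, not counted for its low level, went from 8 to 29 UMIs in blood, a relative log2 ratio of 2.84 (1.67 to 4.18), and from 2 to 17 in lung, 3.01 (0.94 to 6.17).

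At 6 h after injection no member was past the fold from naive mice, beside 1.47% of 8007 genes in lung and 1.13% of 8114 in blood. The 7 lung ratios ran from -0.15 for Eomes to 0.15 for Runx3, and the blood ratios from -0.13 for Tbx21 to 0.19 for Id2. Both time points share the naive samples.

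**Figure D2:**
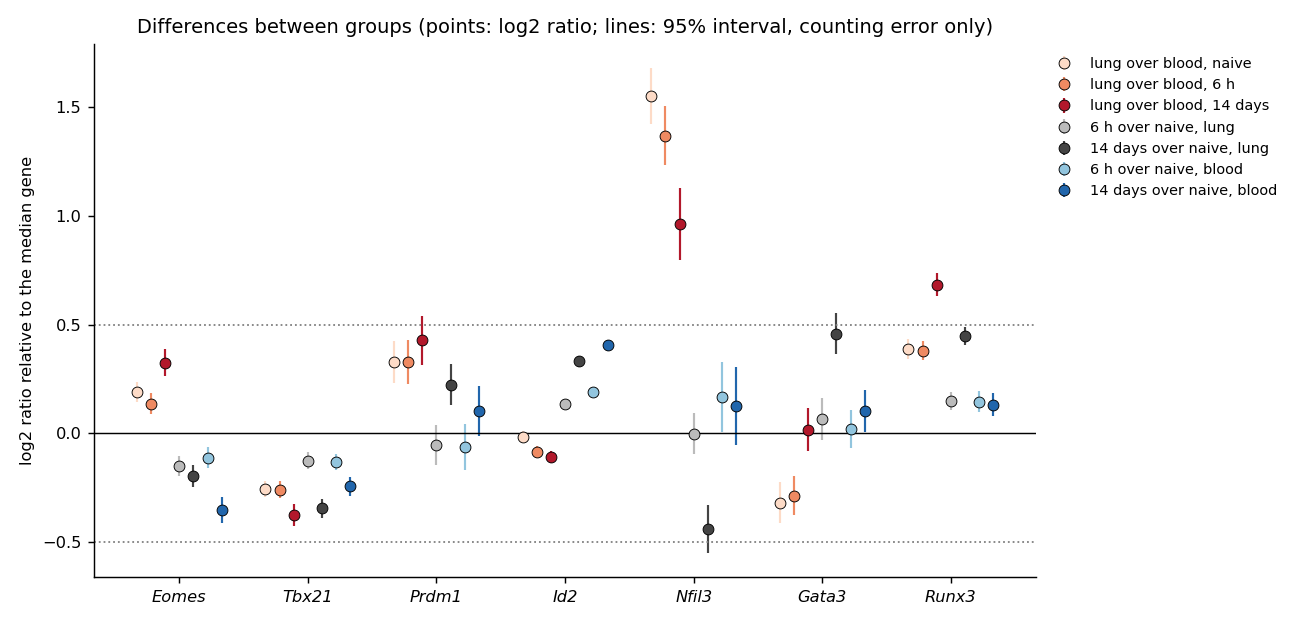
Log2 ratio relative to the median gene (vertical axis) of 7 members (horizontal axis) in 7 comparisons between groups (colours), with 95% intervals and dotted lines at a size of 0.5. Nfil3 in lung over blood stands at 1.55, 1.37 and 0.96, Runx3 at 14 days at 0.68, and no other point is past a dotted line.

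Cells were also set apart by maturation. CD27 marks immature NK cells and CD11b (Itgam) mature ones, and after thinning each cell was put in 1 of 4 classes by UMIs of Cd27 and Itgam. Cells with Cd27 and no Itgam made up 6.74% to 8.99% of a group, and the class with Itgam and no Cd27 made up 50.4% in naive lung, 36.2% in 14-day lung, 53.3% in naive blood and 46.2% in 14-day blood. Missing UMIs are common at this depth, so that the class with neither, 32.5% to 51.7%, is a mixture.

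Tbx21 was lowest in Cd27+Itgam- cells and highest in Cd27-Itgam+ cells in all 6 groups. The step was from 291 to 428 CPM in naive lung, 388 to 541 CPM in naive blood, 251 to 377 CPM in 6 h lung, 331 to 485 CPM in 6 h blood, 203 to 326 CPM in 14-day lung and 242 to 403 CPM in 14-day blood. Each class of lung lay below the same class of blood from its library. The intervals overlapped for Cd27+Itgam+ cells at 6 h, 292 to 341 CPM in lung and 326 to 385 CPM in blood. They also overlapped for Cd27+Itgam- cells at 14 days, 187 to 219 CPM in lung and 216 to 271 CPM in blood. Prdm1 was likewise lowest in Cd27+Itgam- and highest in Cd27-Itgam+ cells in each group, with the widest step in 14-day lung, from 36.5 to 89.0 CPM, against 62.9 to 75.2 CPM in naive lung, where the intervals overlapped.

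Eomes did not follow maturation in lung: naive Cd27+Itgam- and Cd27-Itgam+ cells held 292 and 288 CPM. In naive blood the immature class was higher, at 311 against 259 CPM. In 6 h blood it was higher too, at 287 CPM (264 to 310) against 231 CPM (221 to 241). In 14-day blood the immature class was not higher, at 181 against 192 CPM. Id2 went from 672 to 928 CPM in naive lung and from 891 to 1003 CPM in naive blood, from the immature to the mature class.

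For Cd27+Itgam- over Cd27-Itgam+ cells in naive lung, 1 of 7 members was past the fold, beside 11.8% of all genes: Tbx21, at -0.51 (-0.64 to -0.38). It was past the fold in 6 of 9 alternative settings, and inside it at -0.36 without early-gene cells, at -0.49 without cells that met the stricter marker rule and at -0.35 without cells holding any such marker. Id2 followed at -0.42 (-0.51 to -0.33). In naive blood none was, beside 9.15%, with Tbx21 at -0.43 (-0.54 to -0.33), Prdm1 at -0.39 (-0.69 to -0.11) and Eomes at 0.32 (0.20 to 0.43). Weighting the classes of 14-day lung as in naive lung moved the Tbx21 ratio between these groups from -0.34 to -0.27.

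**Figure D3:**
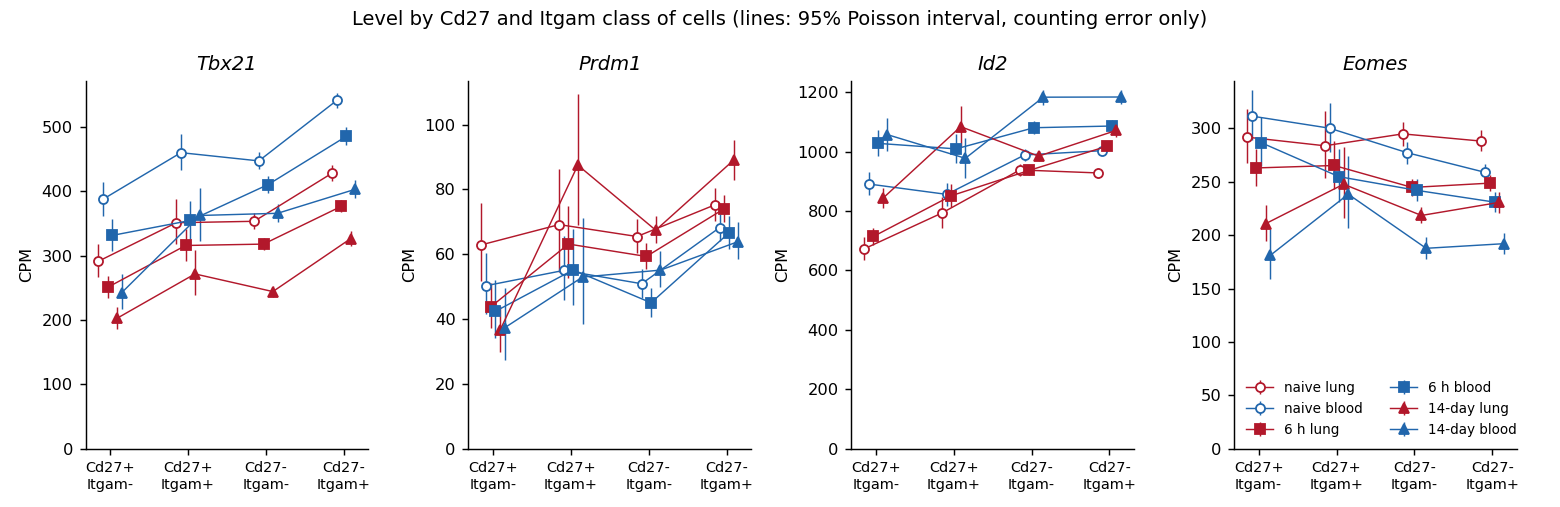
CPM of Tbx21, Prdm1, Id2 and Eomes (vertical axes from 0) in 4 classes of cells by Cd27 and Itgam UMIs (horizontal axes) in the 6 groups (red lung, blue blood; open circle naive, square 6 h, triangle 14 days), with 95% Poisson intervals; lines join the classes of 1 group. Tbx21 is lowest in the first class and highest in the last in each group, and Eomes in naive lung stays between 284 and 295 CPM.

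Each member's level over these 24 profiles of group by class was set against all 6320 genes at 20 CPM or more. The profiles share libraries and cells, so the correlations are a description. The gene most like Tbx21 was Zeb2 (Pearson r = 0.98), which encodes a factor of terminal NK cell maturation, followed by Capn2 (0.97) and Septin11 (0.96). Nfil3 was closest to Tex2 (0.97), Btg3 (0.97) and Crem (0.97). Runx3 was closest to Cemip2 (0.92), Btg1 (0.92) and Jun (0.90), and Eomes to Foxp1 (0.90), Nedd4l (0.89) and Ap3b1 (0.89). Id2 was closest to Sulf2 (0.88), Txndc17 (0.85) and Lamtor1 (0.85), Gata3 to Pik3cd (0.83), Cln3 (0.82) and Tceanc2 (0.81), and Prdm1 to H1f3 (0.81), Wbp2 (0.77) and Zfand5 (0.77). Between members the highest r was 0.73, for Nfil3 and Runx3, and the lowest -0.68, for Nfil3 and Gata3. Eomes and Tbx21 reached 0.32.

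UMIs of Eomes and Tbx21 were next read in the same cells after thinning. Both were found in 32.2% of naive lung cells (30.7 to 33.8), 20.2% of 14-day lung cells (18.9 to 21.6), 34.3% of naive blood cells and 23.5% of 14-day blood cells. Neither was found in 17.5%, 28.3%, 13.3% and 24.7%. In naive lung, Eomes was seen in 53.2% of cells with Tbx21 and in 55.5% of cells without it, and in 14-day lung in 42.1% and 45.7%. In naive blood the shares were 48.8% (47.0 to 50.6) and 55.3% (52.6 to 58.1), the only group with intervals apart. In 14-day blood they were 38.8% and 37.7%. Cells with Tbx21 and no Eomes, the pattern that background knowledge ties to ILC1, made up 28.3% of naive lung and 27.8% of 14-day lung, and a UMI missed by chance gives the same pattern.

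ILC1 were therefore sought by other genes. Cells with UMIs of at least 3 of 8 markers (Cxcr6, Il7r, Tmem176a, Tmem176b, Cd200r1, Tnfsf10, Itga1, Gpr183) after thinning are called ILC1 marker cells. They were 20 of 3590 cells in naive lung (0.557%), 14 of 4292 in naive blood (0.326%), 29 in 6 h lung, 17 in 6 h blood, 61 of 3537 in 14-day lung (1.72%, 1.32 to 2.21) and 52 of 2063 in 14-day blood (2.52%, 1.89 to 3.29). At full depth each of the 8 markers had a UMI in a larger share of cells at 14 days than in naive mice, in both tissues. Such shares rise with depth, and median counts were 5910 in naive and 6999 in 14-day lung, 6351 in naive and 7524 in 14-day blood. For Gpr183 in blood the share went from 2.54% to 2.80% while its level went down, from 4.50 to 4.01 CPM. In lung Itga1 went from 5.71% to 23.9% of cells and Tnfsf10 from 2.99% to 15.7%. How far this alone widened the class was not tested.

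Eomes was lower in ILC1 marker cells than in the other cells of each group. The levels were 30.6 against 292 CPM in naive lung, 28.4 against 273 CPM in naive blood, 93.2 against 250.5 CPM in 6 h lung, 7.06 against 244 CPM in 6 h blood, 39.1 against 227 CPM in 14-day lung and 32.0 against 196 CPM in 14-day blood. No interval of the one overlapped that of the other within a group. The levels in ILC1 marker cells rest on few counts, 72 Eomes UMIs over the 6 groups. Naive lung held 4 of them (8.33 to 78.3 CPM), naive blood 3 (5.85 to 82.9 CPM) and 6 h blood fewer still. Tbx21 went different ways in the tissues. In lung it was higher in ILC1 marker cells of naive mice, at 543 CPM (424 to 684) against 384.5 CPM, and the intervals overlapped at 6 h, at 340 CPM (271 to 421) against 337 CPM, and at 14 days, at 249 CPM (213.5 to 289.6) against 268 CPM. In blood it was lower in ILC1 marker cells at each time point with intervals apart, at 227 CPM (145 to 338) against 492 CPM, 282 CPM (202 to 385) against 432 CPM and 260 CPM (215 to 313) against 376 CPM. These differences in blood were smaller in fold than those of Eomes.

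Zfp683 went the other way. Over the 6 groups, 20 of its 64 UMIs were in the 193 ILC1 marker cells, 11.4 CPM (6.97 to 17.6), and 44 in the other 20655 cells, 0.285 CPM (0.207 to 0.383). In 14-day blood 12 UMIs fell in ILC1 marker cells, 27.4 CPM, and 17 in the rest, 1.03 CPM. In 14-day lung 2 UMIs fell in ILC1 marker cells, 2.90 CPM, and 15 in the rest, 0.548 CPM. That relative log2 ratio was 2.44 (-0.73 to 4.54), with an interval that includes 0. In both tissues at 14 days most Zfp683 UMIs were outside the few ILC1 marker cells.

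In 14-day lung, ILC1 marker cells differed from other cells past the fold in 3 of 7 members, beside 31.5% of all genes. Eomes had a relative log2 ratio of -2.50 (-3.10 to -1.96), Prdm1 -1.71 (-2.55 to -0.99) and Nfil3 -0.96 (-1.80 to -0.23). Runx3 (0.13), Gata3 (0.23), Tbx21 (-0.07) and Id2 (-0.24) were not past it. Just outside the marker limit, the 143 cells with exactly 2 markers held 181 CPM Eomes, and the 33 cells with exactly 3 held 61.3 CPM. With 2 markers as the limit Eomes came to -0.77 and Nfil3 to -0.18, with 4 Eomes came to -3.88, and with another random draw Nfil3 came to -0.47.

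In 14-day blood, 4 of the 7 members other than Zfp683 were past the fold, beside 39.7% of all genes. Zfp683 reached 10 CPM only in the ILC1 marker cells, so it could be counted only where it was high, and its ratio of 4.70 (3.50 to 5.85), from 12 and 17 UMIs, is a description. Gata3 was higher at 0.91 (0.53 to 1.26). Eomes was lower at -2.65 (-3.52 to -1.90), Tbx21 at -0.57 (-0.85 to -0.30) and Prdm1 at -0.53 (-1.30 to 0.13), the last with an interval that includes 0 and past the fold in 7 of 11 alternative settings. Id2 was at 0.40 (0.28 to 0.51).

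Other cell types moved with this split. In 14-day lung, the 11 NK cell markers summed to 3201 CPM in ILC1 marker cells and 15606 CPM in the rest, with none of the 11 at 0, and the 4 endothelial markers to 104 CPM against 0.146 CPM. All endothelial UMIs of the 61 ILC1 marker cells were in 1 cell. Without that cell Eomes was at -2.46. In 14-day blood the 8 T cell markers summed to 1961 CPM against 545 CPM, Trbc2 leading with 769 CPM. They were also higher in ILC1 marker cells of the other groups. The sums were 1628 against 488 CPM in naive lung, 1967 against 475 CPM in naive blood and 960 against 481 CPM in 6 h lung. In 6 h blood they were 1356 against 495 CPM and in 14-day lung 760 against 568 CPM. The leading T cell marker in ILC1 marker cells was Cd3g in naive blood, at 719 CPM against 12.8 CPM over the whole group. In each other group it was Trbc1 or Trbc2. All myeloid UMIs of the 17 ILC1 marker cells of 6 h blood, 2910 CPM, were in 1 cell. Without cells that met the stricter marker rule, the ratios in 14-day lung were -2.33 for Eomes and -1.61 for Prdm1 and those in 14-day blood 4.65 for Zfp683 and 1.03 for Gata3.

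**Figure D4:**
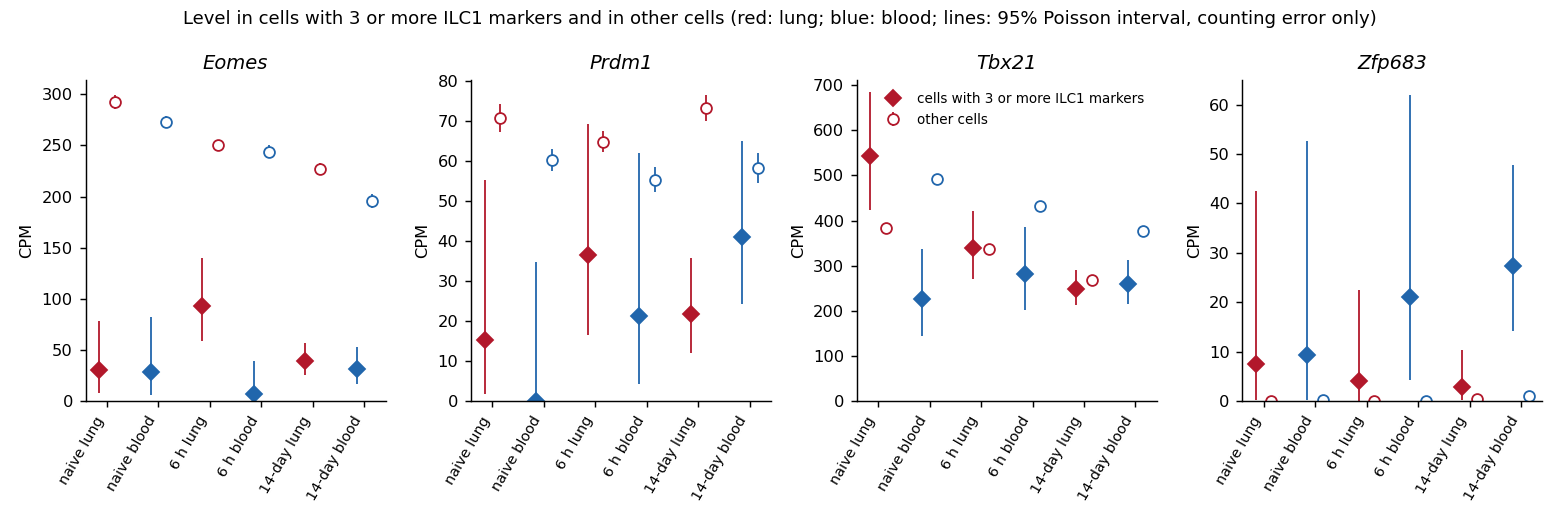
CPM (vertical axes from 0) of Eomes, Prdm1, Tbx21 and Zfp683 in cells with UMIs of 3 or more ILC1 markers (filled diamonds) and in the other cells (open circles) of the 6 groups (red lung, blue blood), with 95% Poisson intervals. Eomes in ILC1 marker cells lies between 7.06 and 93.2 CPM, below the other cells of each group, while Tbx21 in ILC1 marker cells lies below the other cells with intervals apart in blood and in no lung group.

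A second class of cells was set by Itga1 and Pmepa1. The authors name both among genes raised in tumor-associated NK cells of metastatic lung. Both were chosen with earlier results of these data known, so it is only a description that the class was found mostly in 14-day lung. Cells with UMIs of both Itga1, which encodes the collagen-binding integrin CD49a of tissue-resident cells, and Pmepa1, a target and damper of TGF-beta signalling, were 260 of 3537 cells there (7.35%, 6.51 to 8.26). They were 7 in naive lung, 10 in 6 h lung, 5 in 6 h blood, 2 in 14-day blood and 0 of 4292 in naive blood, which allows a share of up to 0.0699% by the limit of 3 counts and 0.0859% by the exact binomial interval. Of the 260, 13 were also ILC1 marker cells, and Itga1 is 1 of the 8 ILC1 markers.

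These cells held Eomes. It stood at 208 CPM (189.2 to 228.6) in them and 224 CPM in the other cells of 14-day lung, and 45.4% of them had an Eomes UMI after thinning, against 9.84% of ILC1 marker cells. Runx3 was higher, at 558 CPM (526.5 to 590.7) against 373 CPM, and Gata3 at 108 CPM (94.8 to 123) against 73.8 CPM. Prdm1 was lower, at 38.8 CPM (30.9 to 48.2) against 74.5 CPM.

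Of 7 members, 3 were thus past the fold, beside 11.9% of all genes: Runx3 at 0.58 (0.49 to 0.67), Gata3 at 0.55 (0.35 to 0.75) and Prdm1 at -0.95 (-1.28 to -0.63). Tbx21 was at -0.41 (-0.56 to -0.27), and Eomes (-0.11), Nfil3 (0.13) and Id2 (0.01) were near the median gene. Without ILC1 marker cells the 3 ratios were 0.57, 0.56 and -0.95. Runx3 was past the fold in all 10 alternative settings, Prdm1 in 9 and Gata3 in 8. With another random draw Gata3 fell inside the fold, at 0.30, and Eomes was at 0.09. Without cells holding any UMI of a T cell, ILC2, B cell or myeloid marker, Gata3 (0.15) and Prdm1 (-0.43) fell inside it. Under that rule Eomes (0.55) and Tbx21 (-0.70) came past it. Of the 260 cells, 238 held a T cell marker UMI, so the ratios under that rule rest on few cells. They cannot decide whether Eomes lies near the median gene. The NK cell markers summed to 10022 CPM in the 260 cells, lower than the 15731 CPM in the other cells of 14-day lung. The T cell markers summed to 753 against 558 CPM and the endothelial markers to 0.473 against 2.89 CPM.

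**Figure D5:**
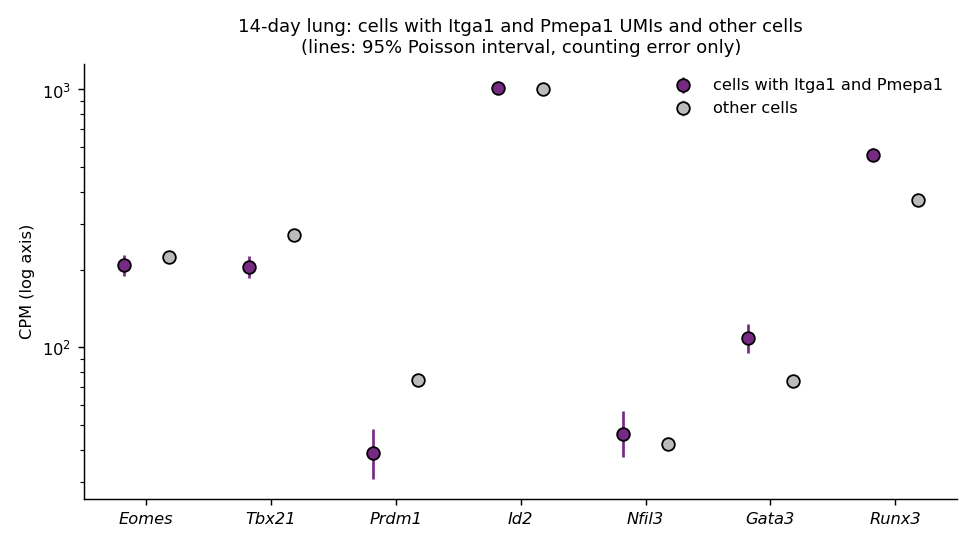
CPM (vertical axis, logarithmic) of 7 members in 14-day lung cells with UMIs of Itga1 and Pmepa1 (purple, 260 cells) and in the other cells (grey), with 95% Poisson intervals. Runx3 and Gata3 sit higher and Prdm1 lower in the purple points, and Eomes and Id2 lie close together.

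Around the members, 3 lists of related genes were read in the same way. Of 23 other transcription factors of NK cells and ILC1, 22 were counted in naive lung over blood, where 11 were past the fold as higher in lung and 1 as lower, with a median of 0.52. Over all 8212 genes tested 13.3% were past the fold, 783 as higher and 310 as lower. Bhlhe40, a repressor induced by activation, was at 1.81 (255 against 77.4 CPM), Myb at 1.71 and Ahr, the aryl hydrocarbon receptor, at 1.51. The lower one was Ikzf3 (Aiolos), at -0.70. Of 9 partners of the members (RUNX proteins, CBFb, E proteins, Id proteins and a GATA cofactor), 1 of 7 counted was higher, near the share over all genes. Of 10 genes known to depend on them, 3 of 9 were higher and 1 lower, the lower being S1pr5, the T-bet dependent receptor for exit from tissues, at -0.53.

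At 14 days over naive in lung, 3 of the 22 other factors were higher and 9 lower, with a median of -0.44, beside 807 higher and 562 lower of all 8108 genes (16.9%). Ahr was at 2.33 (77.1 against 17.5 CPM), Ikzf2 (Helios) at 0.93 and Tcf7 (TCF-1) at 0.81. Klf2, which drives S1P receptor genes, was at -1.09, Runx1 at -0.90 and S1pr1 at -0.85. Of the dependent genes 1 of 9 was higher and 4 were lower, and of the partners Runx1 alone was past the fold, while Runx3 in the same cells was at 0.45. In blood, where 5.37% of all 8117 genes were past the fold, 0 of 21 other factors were higher and 2 lower, and none of 7 partners was past it. Of the dependent genes 3 of 9 were higher in blood and 1 lower, with a median of 0.28, against a median of -0.28 in lung.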

How the data were processed

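The authors deposited 3 raw 10x Genomics matrices of UMI counts, 1 per time point, made with Cell Ranger on GRCm38.p6; the submitters' processing notes also name Seurat 5.0. The values are whole numbers. The methods give the sort as CD45+ lineage-negative NK1.1+NKp46+ cells. Barcodes with 800 to 5000 genes and at most 6% mitochondrial counts were kept (8385, 7584 and 5785), and tissue was given to cells with at least 90% of tag counts from 1 hashtag; 342, 158 and 141 cells had none. Doublets beyond mixed tags were not called; leaving out the 5% of cells with the most UMIs was an alternative. The 8 members, the 3 gene lists and the Itga1 and Pmepa1 class were chosen with earlier results of these data known, and the 14-day blood ILC1 comparison after its values were seen.

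Counts were summed per group and given as CPM with exact 95% Poisson intervals; shares have exact binomial intervals. Log2 ratios have exact intervals given the summed counts and are relative to the median gene, taken over those reaching 10 CPM in either group; a count of 0 was set to 3. Each UMI counts a molecule near its 3′ end once, so levels compare groups, not genes. Classes of cells and shares used counts thinned to 3000 UMIs per cell, which left out 6 to 86 cells per group. Free RNA was bounded by Ms4a1, a B cell gene: the upper limit of its level in cells over barcodes with at most 100 counts was 7.97%, 4.21% and 3.19% of a cell's counts in the naive, 6 h and 14-day libraries. Other alternatives changed the cell and tag filters, the totals, the scaling, the low-level filter and the cells included. Named list genes were up to 3 per direction, by size, over the 3 lists in naive lung over blood and in 14-day over naive lung; for likeness, the 3 genes with the highest Pearson r of log2(CPM + 1). Gene positions are from GENCODE on GRCm38. The ratio code was tested on simulated data. Python 3.11.15, NumPy 2.4.6 and SciPy 1.17.1 were used.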

Additional observations from a re-analysis of the deposited data

How the results depend on the processing

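Of 163 counts of members past the fold, recomputed over 12 comparisons, 150 were within 1.5 times the reported count and 13 were not, and no ratio past the fold changed sign. Of 1152 ratios of single members, 991 stayed within the counting interval of the reported value; the cause of the other 161 was not tested. At 50 CPM in place of 10, the members past the fold were 1 in place of 2 for lung over blood at 14 days, since Nfil3, at 42.9 CPM and a ratio of 0.95, was no longer counted, and 2 in place of 0 for 14 days over naive in lung, where the median gene moved and Gata3 (0.53) and Runx3 (0.51) came past the fold. Taken without the median gene, 14 days over naive gave 2 in lung and 1 in blood, both in place of 0. Without early-gene cells the counts were 3 in place of 0 for 14 days over naive in lung, 2 in place of 1 for Cd27+Itgam- over Cd27-Itgam+ cells in naive lung and 5 in place of 3 for ILC1 marker cells in 14-day lung. With another random draw for thinning, Cd27+Itgam- over Cd27-Itgam+ cells gave 2 in place of 1 in naive lung and 1 in place of 0 in naive blood. Without cells holding any UMI of a T cell, ILC2, B cell or myeloid marker, 83.4% to 88.7% of all cells since NK cells transcribe Trbc1 and Trbc2, the counts were 2 in place of 1 in naive lung and 3 in place of 0 in naive blood for Cd27+Itgam- over Cd27-Itgam+ cells and 6 in place of 3 for ILC1 marker cells in 14-day lung. Of those 61 ILC1 marker cells, 59 held a T cell marker UMI, so the count of 6 rests on almost no cells. A stricter rule, added after seeing the data, gave 0 in place of 1 for Cd27+Itgam- over Cd27-Itgam+ cells in naive lung. The weighting by class, the left-out ILC1 marker, Itga1 and Pmepa1, and endothelial cells, and all settings of the 14-day blood ILC1 comparison were also chosen after seeing the data. The filter on any such marker left no ILC1 marker cell in 14-day blood and gave no value there. Cells with and without a Zfp683 UMI in 14-day lung were not compared, since 8 cells held one after thinning. No paired analysis was possible because each time point is 1 library and no value comes from a test; for the same reason no replicate could be left out. Depth limits Zfp683 most, with 64 UMIs in all cells.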
